A study of Mus musculus with 13 samples.

Results

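Sox10, Sox9, Sox5, Sox2, Pax3, Tfap2a, Tfap2b and Foxd3, which encode transcription factors of the neural crest, were examined in 9 cell lines derived from mouse melanomas, each with a list of peaks of the histone mark H3K27ac. The genes were chosen by name. They are 8 of the 21938 protein-coding genes of the annotation, and each was described by the peaks that overlapped its body plus 50 kb on each side, here called its window, and by a promoter call, meaning a peak within 1 kb of an annotated start site. H3K27ac is an acetylation of histone H3 that marks enhancers and promoters in use, and ChIP-seq maps it by sequencing immunoprecipitated chromatin.

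The 9 lines were established from melanomas of mice that all carried Tyr::NRAS, an oncogenic NRAS transgene driven by the tyrosinase promoter, that were all Cdkn2a+/-, and that all had floxed alleles of the E-cadherin gene (Cdh1 F/F). ΔEcad mice also carried Tyr::CreA, which places Cre recombinase in the melanocyte lineage, whereas Ecad mice had no Cre. Lines Ma_1014 and Ma_1039 were female Ecad, Ma_1007 and Ma_1181 male Ecad, Ma_1062 and Ma_1456 male ΔEcad, and Ma_1057, Ma_1064 and Ma_1069 female ΔEcad. Each line gave 1 list, so the line is the replicate, and the ages of the mice are not given in the sources used here.

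The lists held between 20741 and 41663 peaks and covered between 29.5 Mb in Ma_1069 and 67.2 Mb in Ma_1007. The female ΔEcad lists covered 34.2, 39.5 and 29.5 Mb and were, with the 37.1 Mb of Ma_1062, the 4 shortest, so the length of a list moved with the group. The read depth behind each list is unknown. Promoters of 6 of 7 melanocyte lineage markers were called in all 9 lists, and that of Tyrp1 in 6. No promoter of the 7 fibroblast, 5 immune, 3 endothelial or 4 keratinocyte markers was called in all 9 lists. Among these, Pdgfra was called in Ma_1007 alone and Cd68 in 4 lists. Of the markers of Schwann cells, glia of the same embryonic origin, Egr2 was called in all 9 lists and Prx and S100b in 7 each, and their part in the results was not tested. No list had a peak at the promoter of Cdh1, the deleted gene. Peaks within Cdh1 covered 5.14 to 8.79 kb in the 4 Ecad lines. The male ΔEcad lines Ma_1062 and Ma_1456 had 4.45 and 7.38 kb there, and Ma_1057, Ma_1064 and Ma_1069 had 1.66, 2.48 and 3.16 kb. Peaks of an acetylation mark are no direct check of the deletion.

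The neural crest is a transient embryonic cell population that gives rise to melanocytes, peripheral glia and other cell types. SOX10 and PAX3 act together on the promoter of Mitf, the master regulator of melanocytes, and SOX10 is kept in melanocytes and in most melanomas. TFAP2A works beside MITF at genes of pigment cells, whereas FOXD3, SOX9 and SOX2 are better known from earlier crest cells, cartilage or glial and neural progenitors. TFAP2B is a paralogue of TFAP2A.

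The elements on which the results turn are shown first as the reference DNA under their summits. An element is a stretch made by merging the peaks of all 9 lists that overlapped or touched. Each sequence is 151 bases of the forward strand of mouse GRCm38.p6 around the summit position that most lists shared. Capitals mark CG dinucleotides and, in the Sox5 element alone, CTTTGT, the reverse complement of the SOX consensus ACAAAG. 4 sequences come from the broad blocks of Sox10 and Pax3, which had the most covered kb relative to their windows.
Sox10 block over the start site, chr15:79166319-79166469, upstream of Sox10 and inside the non-coding gene Gm10863: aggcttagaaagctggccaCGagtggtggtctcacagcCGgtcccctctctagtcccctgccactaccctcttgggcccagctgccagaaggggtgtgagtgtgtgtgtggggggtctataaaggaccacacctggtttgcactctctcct
Sox10 upstream block, chr15:79209689-79209839, inside the non-coding gene Gm10863: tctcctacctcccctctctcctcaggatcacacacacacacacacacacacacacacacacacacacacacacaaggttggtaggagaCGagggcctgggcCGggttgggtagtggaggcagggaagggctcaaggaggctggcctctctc
Pax3 block over the start site, chr1:78190052-78190202, intron of Pax3: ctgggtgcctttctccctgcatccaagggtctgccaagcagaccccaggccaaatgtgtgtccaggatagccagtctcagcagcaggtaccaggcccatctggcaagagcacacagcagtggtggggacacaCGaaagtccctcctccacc
Pax3 downstream block, chr1:78057752-78057902, no annotated gene: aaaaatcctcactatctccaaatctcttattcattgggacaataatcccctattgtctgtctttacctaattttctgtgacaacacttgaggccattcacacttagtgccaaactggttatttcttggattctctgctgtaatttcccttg

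A further 4 sequences show the strongest Sox5 element, a distal Tfap2a element that every list called, and the start-site elements of Sox2 and Tfap2b, which few lists called.
Sox5 intronic element, chr6:144181206-144181356, intron of Sox5: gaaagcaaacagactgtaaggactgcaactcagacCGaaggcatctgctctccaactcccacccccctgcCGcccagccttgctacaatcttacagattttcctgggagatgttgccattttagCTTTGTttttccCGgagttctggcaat
Tfap2a upstream element, chr13:40749536-40749686, no annotated gene: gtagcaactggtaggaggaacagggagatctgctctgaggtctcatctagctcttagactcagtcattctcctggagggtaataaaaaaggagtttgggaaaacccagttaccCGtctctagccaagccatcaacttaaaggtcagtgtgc
Sox2 start-site element, chr3:34650564-34650714, coding exon of Sox2: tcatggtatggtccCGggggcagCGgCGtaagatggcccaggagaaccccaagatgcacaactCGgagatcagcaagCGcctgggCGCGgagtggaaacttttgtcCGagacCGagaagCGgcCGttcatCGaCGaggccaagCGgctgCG
Tfap2b start-site element, chr1:19210195-19210345, intron of Tfap2b: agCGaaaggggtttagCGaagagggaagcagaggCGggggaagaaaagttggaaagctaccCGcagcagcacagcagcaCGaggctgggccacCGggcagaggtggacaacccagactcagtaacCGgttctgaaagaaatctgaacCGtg

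These windows differed in CG content. The Sox2 window held 15 CG dinucleotides and the Tfap2b window 8, against 2 in each Sox10 window and 0 in the downstream Pax3 block. The window of the Pax3 start-site block, which lies in an intron and not at the start itself, held 1. All 9 lists had their strongest summit within 250 bp of the one shown for Sox5, and 8 of 9 did so for the Sox10 start-site block and the Tfap2a upstream element. For the Sox10 upstream block, whose window runs through a CA repeat, 4 of 9 did so. For the Tfap2b element 2 of the 4 lists that called it did so. The summit of Ma_1069, its strongest list, lay elsewhere in the element (chr1:19213720).

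The letters of 5 consensus sequences were searched, on either strand, in the 151-base windows of all 93 elements of the 8 genes and of the 59644 regions of the whole series with a full window. ACAAAG was in 16.1% of the members' windows and 13.6% of all, and ACAATG in 14.0% and 7.07%. CATGTG, an E-box, was in 16.1% and 10.2%. CACGTG, the other E-box, was in 0 of the 93 windows and in 1.79% of all, and GCCNNNGGC, the TFAP2 consensus, in 1 window (1.08%) and in 5.24% of all. The members' counts are small and the windows of one gene lie in the same locus, so these shares are descriptions.

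The 8 genes fell into a group that every line marked and a group that few lines marked. The promoters of Sox10, Pax3, Tfap2a and Sox5 were called in all 9 lists, as were 21.1% of all protein-coding genes. Sox9 was called in 2 lists (Ma_1007 and Ma_1456), Sox2 in 2 (Ma_1181 and Ma_1062), Foxd3 in 2 (Ma_1014 and Ma_1456) and Tfap2b in 3 (Ma_1456, Ma_1057 and Ma_1069). Of all protein-coding genes 31.8% were called in 1 to 8 lists and 47.1% in none, and no member was among the latter.

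The strength of a peak was taken as the percentile of its −log10 q within its own list. At the promoter, the strongest Sox10 peak lay between percentiles 97.7 and 99.9 and that of Pax3 between 97.9 and 99.5 in the 9 lists. The Tfap2a peak ranged from 63.6 in Ma_1069 to 96.9 in Ma_1014, and the Sox5 peak from 61.3 in Ma_1456 to 98.5 in Ma_1007. Where the other genes were called, their strength varied between lines. Sox9 was at 70.9 in Ma_1007 and 10.5 in Ma_1456. Sox2 was at 93.5 in Ma_1181 and 64.5 in Ma_1062. Foxd3 stood at 80.3 in Ma_1014 and 94.5 in Ma_1456, and Tfap2b at 95.4 in Ma_1057, 98.7 in Ma_1069 and 26.7 in Ma_1456.

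**Figure D1:**
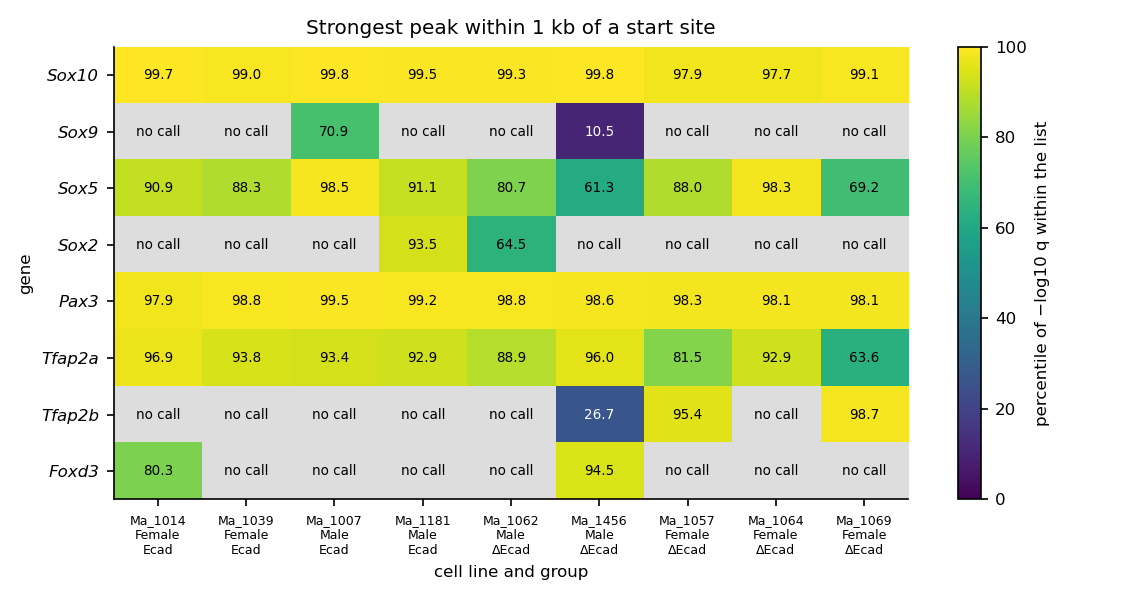
Percentile of −log10 q within its list of the strongest peak within 1 kb of a start site, for each gene and each line. Grey cells had no such peak. Sox10 and Pax3 stayed above 97 in all 9 lists, whereas Sox9, Sox2, Tfap2b and Foxd3 were called in 2 or 3 lists.

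The windows of the 8 genes held 93 elements, of which 19 (20.4%) were called in all 9 lists, 44 in 2 to 8 and 30 in a single list. Of all 59668 merged regions 13.7% were called in all 9 lists. The 19 elements belonged to Sox5 (11), Pax3 (4), Sox10 (2) and Tfap2a (2). Of the 30 elements in a single list, 15 were in Ma_1007, the longest list. No element of the 8 windows was called in exactly the lists of 1 sex, of 1 genotype or of female ΔEcad. Few of all regions were: 0.0268% for female, 0.146% for male, 0.551% for Ecad, 0.00335% for ΔEcad and 0.434% for female ΔEcad. The absence among the 93 elements is near those shares. A single element, at the start of Micall1 in the Sox10 window (chr15:79107974-79110614), was called in exactly the 6 lists that were not female ΔEcad, as were 1.34% of all regions. Its percentile within those lists ranged from 13.0 to 86.8.

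Sox10 (ENSMUSG00000033006.10, chr15:79154908-79165240, reverse strand), the crest factor that specifies melanocytes and glia, was covered by 2 broad blocks. The first (chr15:79150705-79178199, 27495 bp) ran over the whole gene and its start, and the end of the neighbouring Polr2f. The second (chr15:79190550-79225952, 35403 bp, centred 43.0 kb upstream of the start) ran over the non-coding gene Gm10863 and past the end of the window. Their mean percentiles over the 9 lists were 99.09 and 99.15. The window also held the starts of Micall1, Polr2f and 1700088E04Rik, whose promoters were called in 6, 4 and 3 lists. The third element by strength, with a mean percentile of 85.8, lay inside Micall1 (chr15:79118827-79120937) in Ma_1039 and Ma_1456. Peaks covered 56.5 and 59.4 kb of the Sox10 window in Ma_1014 and Ma_1039 (female Ecad), 61.0 and 53.7 kb in Ma_1007 and Ma_1181 (male Ecad), 40.4 and 62.3 kb in Ma_1062 and Ma_1456 (male ΔEcad), and 35.5 kb in Ma_1057, 31.8 kb in Ma_1064 and 36.2 kb in Ma_1069 (female ΔEcad). The 3 female ΔEcad lines were below the other 6, and Ma_1062 was the nearest to them. In every list between 99.36% and 99.92% of the 18244 tested genes covered no more kb than Sox10.

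Pax3 (ENSMUSG00000004872.15, chr1:78101267-78197134, reverse strand), the paired-box factor that acts with SOX10 on Mitf, carried the longest block of the 8 genes. It (chr1:78134641-78203701, 69061 bp) spanned the start site and the 5′ part of the gene. A peak within it was the widest of the entire list in Ma_1014 (62268 bp), Ma_1039 (60141 bp), Ma_1007 (57600 bp), Ma_1181 (69061 bp) and Ma_1062 (43653 bp). In the other 4 lists the widest Pax3 peak ranked 14 (Ma_1456), 4 (Ma_1057), 10 (Ma_1064) and 5 (Ma_1069) by width. The strongest Pax3 element by mean percentile (99.6) was a 21791-bp block centred 137 kb downstream of the start (chr1:78049587-78071377), where no gene is annotated. A further block of 26195 bp (chr1:78107463-78133657) over the 3′ part of the gene was called in all 9 lists at a lower mean percentile of 72.1.

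Peaks covered 91.5 and 93.5 kb of the Pax3 window in Ma_1014 and Ma_1039 (female Ecad), 109.0 and 120.5 kb in Ma_1007 and Ma_1181 (male Ecad), 92.6 and 94.0 kb in Ma_1062 and Ma_1456 (male ΔEcad), and 75.8 kb in Ma_1057, 73.0 kb in Ma_1064 and 76.0 kb in Ma_1069 (female ΔEcad). The female ΔEcad lines were again below the other 6, and the male Ecad lines were above the other 7. Female Ecad and male ΔEcad overlapped.

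**Figure D2:**
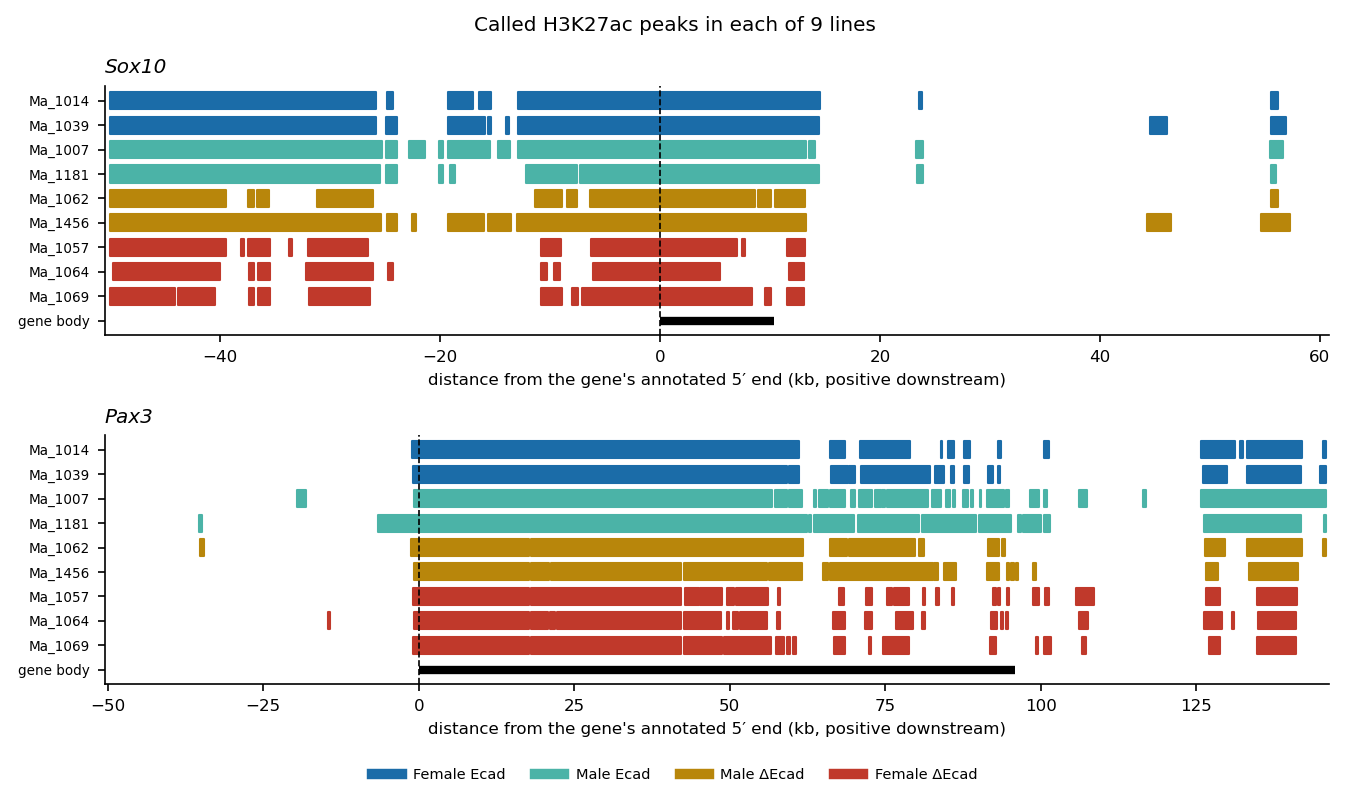
Called H3K27ac peaks (coloured bars, 1 row per line, coloured by group) in the windows of Sox10 and Pax3 against the distance in kb from the annotated 5′ end of the gene, positive downstream; the black bar is the gene body. The Pax3 start-site block is 1 to 5 peaks in the other 6 lines and 7 to 9 in the female ΔEcad lines, and the Sox10 blocks are broken up in these 3 lines and in Ma_1062.

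The blocks differed between lines in their continuity as well as in their length. The Sox10 start-site block was made of 1 peak in Ma_1014, Ma_1039 and Ma_1456, 2 in Ma_1007 and Ma_1181 and 5 in Ma_1062, against 4, 4 and 5 in the female ΔEcad lists. The Sox10 upstream block was 1 peak in each of the 4 Ecad lists, 2 in Ma_1456 and 6 in Ma_1062, against 7, 8 and 7. The Pax3 start-site block was 1, 2, 3, 1, 2 and 5 peaks in Ma_1014, Ma_1039, Ma_1007, Ma_1181, Ma_1062 and Ma_1456, against 7, 9 and 7. The female ΔEcad lists therefore had more pieces than any other list in 2 of these 3 blocks, and Ma_1062 was like them at Sox10.

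The 8 windows held 6 elements of at least 10 kb called in all 9 lists. In 2 of the 6 every female ΔEcad list had more peaks than any other list, and this held for 3.4% of the 471 such elements of the whole series. In 4 of the 6 (the Sox10 start-site block and the 3 Pax3 blocks) every female ΔEcad list was covered over a smaller share than any other list, against 16.3% of the 471. These counts were chosen after the values of the blocks were seen, and the 6 elements lie at 3 genes. Peaks were also narrower in general in the female ΔEcad lists, with median widths of 943 to 1019 bp against 1059 to 1195 bp in the other 6, and the part of this in the broken blocks was not tested. The median number of peaks over the 471 elements was 2 in 8 lists and 1 in Ma_1007.

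Covered kb in the window was compared between groups by exact two-sided permutation tests over lines, for every one of 18244 protein-coding genes with a peak in the window in at least 1 list, with Benjamini-Hochberg adjustment over all of them. The comparison of female ΔEcad with the other 6 lines addresses the question of whether these lines stand apart from all others. Sox10 covered 34.5 ± 2.34 kb (SD, n = 3) in female ΔEcad and 55.6 ± 8.06 kb (SD, n = 6) in the rest, a difference of -21.1 kb (exact permutation p = 0.0119, adjusted p = 0.0816). Pax3 covered 74.9 ± 1.68 kb (SD, n = 3) and 100.2 ± 11.9 kb (SD, n = 6), a difference of -25.2 kb (exact permutation p = 0.0119, adjusted p = 0.0816). This p is the smallest that the 84 arrangements can give. No gene of the 18244 passed an adjusted p of 0.05 in this or in any of the other comparisons. Unadjusted, 5477 genes passed here, 3355 by genotype, 1822 by sex and 1114 in the difference of the genotype effect between the sexes.

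Sox10 and Pax3 were thus 2 of 8 members below an unadjusted 0.05 in the lower direction, where 28.5% of all tested genes were. The share among the members was near that of all genes. The median difference was -3.46 kb over the 8 members and -1.34 kb over all tested genes. With each value divided by the length of its list, the picture differed. As kb per Mb covered by the whole list, Sox10 was 1.02 ± 0.211 (SD, n = 3) in female ΔEcad and 1.19 ± 0.161 (SD, n = 6) in the rest (exact permutation p = 0.238), and Pax3 was 2.21 ± 0.365 (SD, n = 3) and 2.18 ± 0.475 (SD, n = 6) (exact permutation p = 0.905). On that scale the calls of both genes were lost and the Pax3 difference turned its sign, while 15.4% of all genes were lower. With every list cut to its strongest 20741 peaks instead, the differences were -17.8 kb for Sox10 and -21.5 kb for Pax3. Each had an exact permutation p of 0.0119 (adjusted p = 0.0931), and 27.26% of all genes passed 0.05 in either direction. Without any 1 of the female ΔEcad lines (Ma_1057, Ma_1064 or Ma_1069) the Pax3 difference was no longer below 0.05 (exact permutation p = 0.0714 each time), whereas that of Sox10 remained so without any 1 of the 9 lines. The smallest p that the 28 arrangements then left can give, 0.0357, is below 0.05, so this floor did not set the loss. The loss occurred whichever of the 3 lines was left out, so it does not single out 1 line. Leaving out each of the 9 lines, the Pax3 difference stayed between -27.0 and -21.2 kb.

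**Figure D3:**
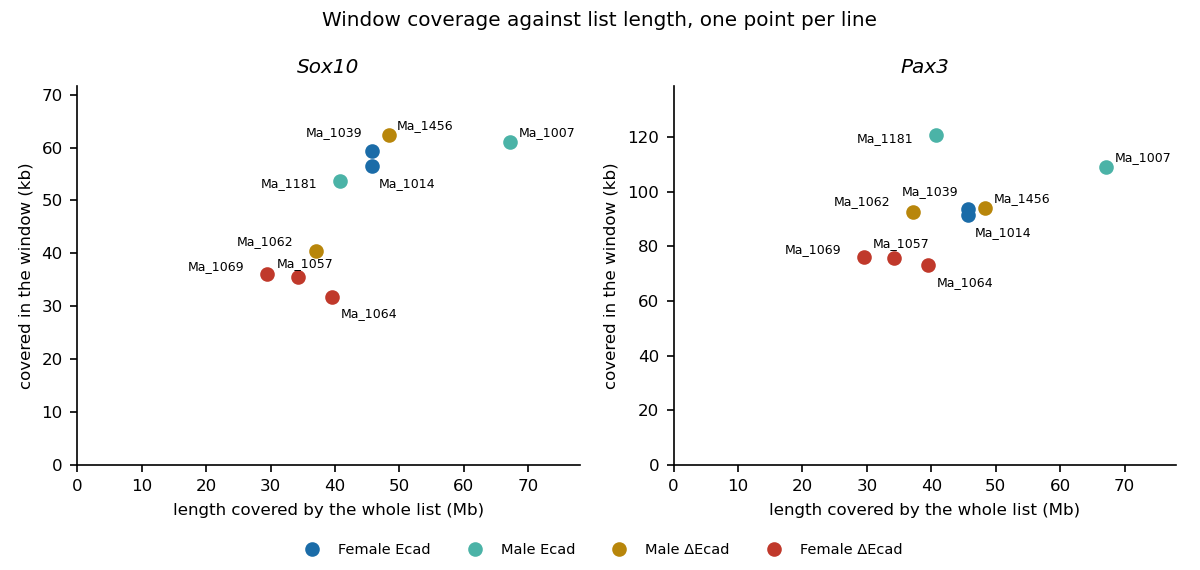
Covered kb in the Sox10 and Pax3 windows (vertical axes) against the Mb covered by the whole list (horizontal axes), 1 point per line, coloured by group. The female ΔEcad lists are among the 4 shortest and have the lowest values in both windows.

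Between the sexes, Pax3 covered 82.0 ± 9.71 kb (SD, n = 5) in female lines and 104.0 ± 13.3 kb (SD, n = 4) in male lines, a difference of -22.1 kb (exact permutation p = 0.0317, adjusted p = 0.477). It was below an unadjusted 0.05 as 1 of the 8 members, in the direction of 9.76% of all tested genes, and was no longer so without any 1 of Ma_1014, Ma_1007, Ma_1181, Ma_1456, Ma_1057, Ma_1064 and Ma_1069 (exact permutation p = 0.0536 to 0.0571). Per Mb of list the Pax3 difference was -0.12 kb per Mb (exact permutation p = 0.706), where 5.67% of all genes were lower. No member passed an unadjusted 0.05 between the genotypes (18.4% of all genes did in either direction). The members' median was -2.33 kb against -0.98 kb for all genes. The nearest were Sox10 at -16.4 kb (exact permutation p = 0.0556, adjusted p = 0.275) and Pax3 at -21.4 kb (exact permutation p = 0.0714, adjusted p = 0.298). The Sox10 values of ΔEcad and Ecad lines overlapped through Ma_1456, which had the most covered kb of all 9 lines. Without this line, which went the other way, the difference was -21.7 kb (exact permutation p = 0.0286, adjusted p = 0.164). In that setting 3122 of 18049 tested genes passed 0.05 as lower. Within females the Sox10 difference of ΔEcad from Ecad was -23.5 kb and within males -6.01 kb, and for Pax3 it was -17.5 and -21.5 kb. The test of the difference between these genotype effects did not pass for either gene (exact permutation p = 0.3 for Sox10 and 0.833 for Pax3).

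**Figure D4:**
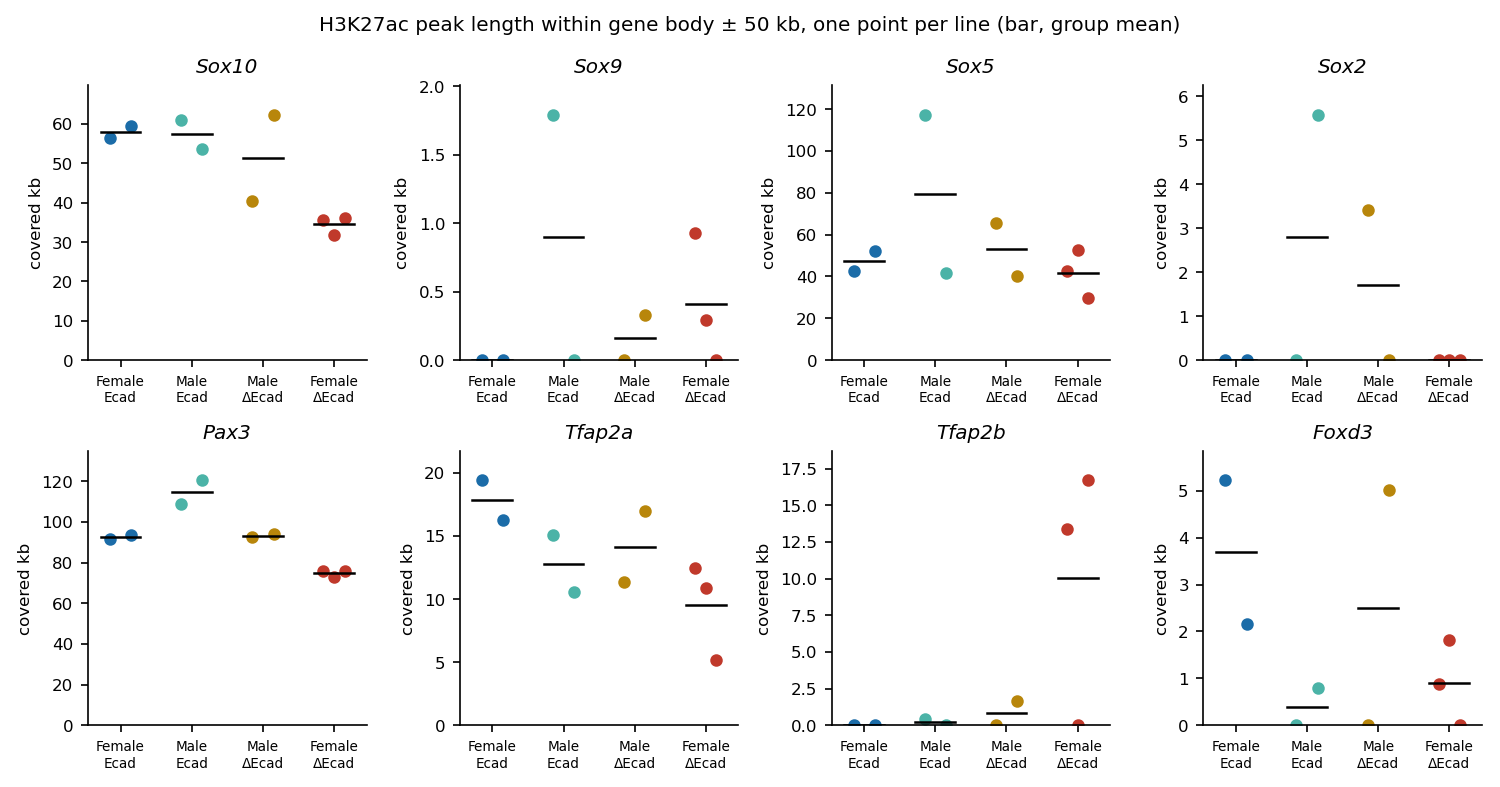
Covered kb within the gene body plus 50 kb on each side (vertical axes, scaled per gene from 0) for each of the 8 genes and each line (points), by group, with the group mean as a bar. Sox10 and Pax3 are lowest in the 3 female ΔEcad lines, Sox9, Sox2 and Tfap2b are at 0 in most lines, and Sox5 is highest in the male Ecad line Ma_1007.

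Tfap2a (ENSMUSG00000021359.16, chr13:40715302-40738376, reverse strand), which encodes the AP-2α factor active at pigment cell genes, was marked inside the gene more often than at its annotated 5′ end. Its block (chr13:40719710-40737562, 17853 bp) was called in all 9 lists, with a mean percentile of 88.9. The 9 start sites of Tfap2a were called in fewer lists the further upstream they lay. The 4 sites between 6.77 and 9.43 kb inside the gene were called in all 9 lists and the 3 sites between 4.40 and 4.60 kb inside it in 8, all but Ma_1069. The site at 3.46 kb was called in 5 lists, Ma_1014, Ma_1039, Ma_1007, Ma_1062 and Ma_1456. The 5′ end itself was called in Ma_1014 alone. Both splits lay at the edge of the 1 kb rule. The block began 4.43 kb inside the gene in Ma_1062, which was called at the 3.46 kb site. In Ma_1181 and Ma_1057, which were not, it began at 4.46 and 4.50 kb. It began 0.814 kb inside the gene in Ma_1014 and 1.009 kb in Ma_1039, and no peak of the block covered the 5′ end in any list.

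Covered kb in the Tfap2a window was 19.4 and 16.3 in Ma_1014 and Ma_1039 (female Ecad), 15.1 and 10.6 in Ma_1007 and Ma_1181 (male Ecad), 11.3 and 17.0 in Ma_1062 and Ma_1456 (male ΔEcad), and 12.5 in Ma_1057, 10.9 in Ma_1064 and 5.20 in Ma_1069 (female ΔEcad). All female ΔEcad lines were below both female Ecad lines, with a mean difference of -8.32 kb, whereas the male groups overlapped and differed by 1.34 kb. The test of the difference between these genotype effects gave -9.66 kb (exact permutation p = 0.0833, adjusted p = 0.626), and per Mb of list -0.204 (exact permutation p = 0.05, adjusted p = 0.413). Neither passed. The distal element 11.6 kb upstream of the 5′ end was called in all 9 lists at percentiles from 18.4 to 77.9, and its width was between 0.494 and 1.13 kb. The next element by mean percentile (59.5) lay 54.3 kb downstream of the 5′ end (chr13:40683524-40684657) and was called in Ma_1456 alone.

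Tfap2b (ENSMUSG00000025927.13, chr1:19208914-19238576, forward strand), the paralogue of Tfap2a, differed between lines of 1 group. Female ΔEcad lines Ma_1057 and Ma_1069 had 13.4 and 16.7 kb covered in the window, whereas Ma_1064 of the same group had 0. Of the other lines, Ma_1456 had 1.67 kb, Ma_1007 had 0.413 kb and Ma_1014, Ma_1039, Ma_1181 and Ma_1062 had 0. In Ma_1057 and Ma_1069 single peaks of 12667 and 15463 bp, ranked 42 and 20 in their lists by width, covered the start site. All 5 start sites of Tfap2b were called in these 2 lists. The 2 sites at the 5′ end were also called in Ma_1456. In Ma_1069 a further peak of 1242 bp lay 7.84 kb upstream of the start, in no other list. Female ΔEcad lines had 10.0 ± 8.84 kb (SD, n = 3) and the rest 0.347 ± 0.669 kb (SD, n = 6), a difference of 9.68 kb that did not pass (exact permutation p = 0.0833, adjusted p = 0.212). Without Ma_1064 the difference was 14.7 kb (exact permutation p = 0.0357, adjusted p = 0.151), so that 1 line decided on which side of 0.05 it lay. This p is the smallest that the 28 arrangements then left can give, and 301 of 18227 tested genes passed 0.05 as higher there. Ma_1064 was the female ΔEcad line at 0, so leaving it out was bound to raise the difference. The neighbouring paralogue Tfap2d had no promoter call in any list.

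**Figure D5:**
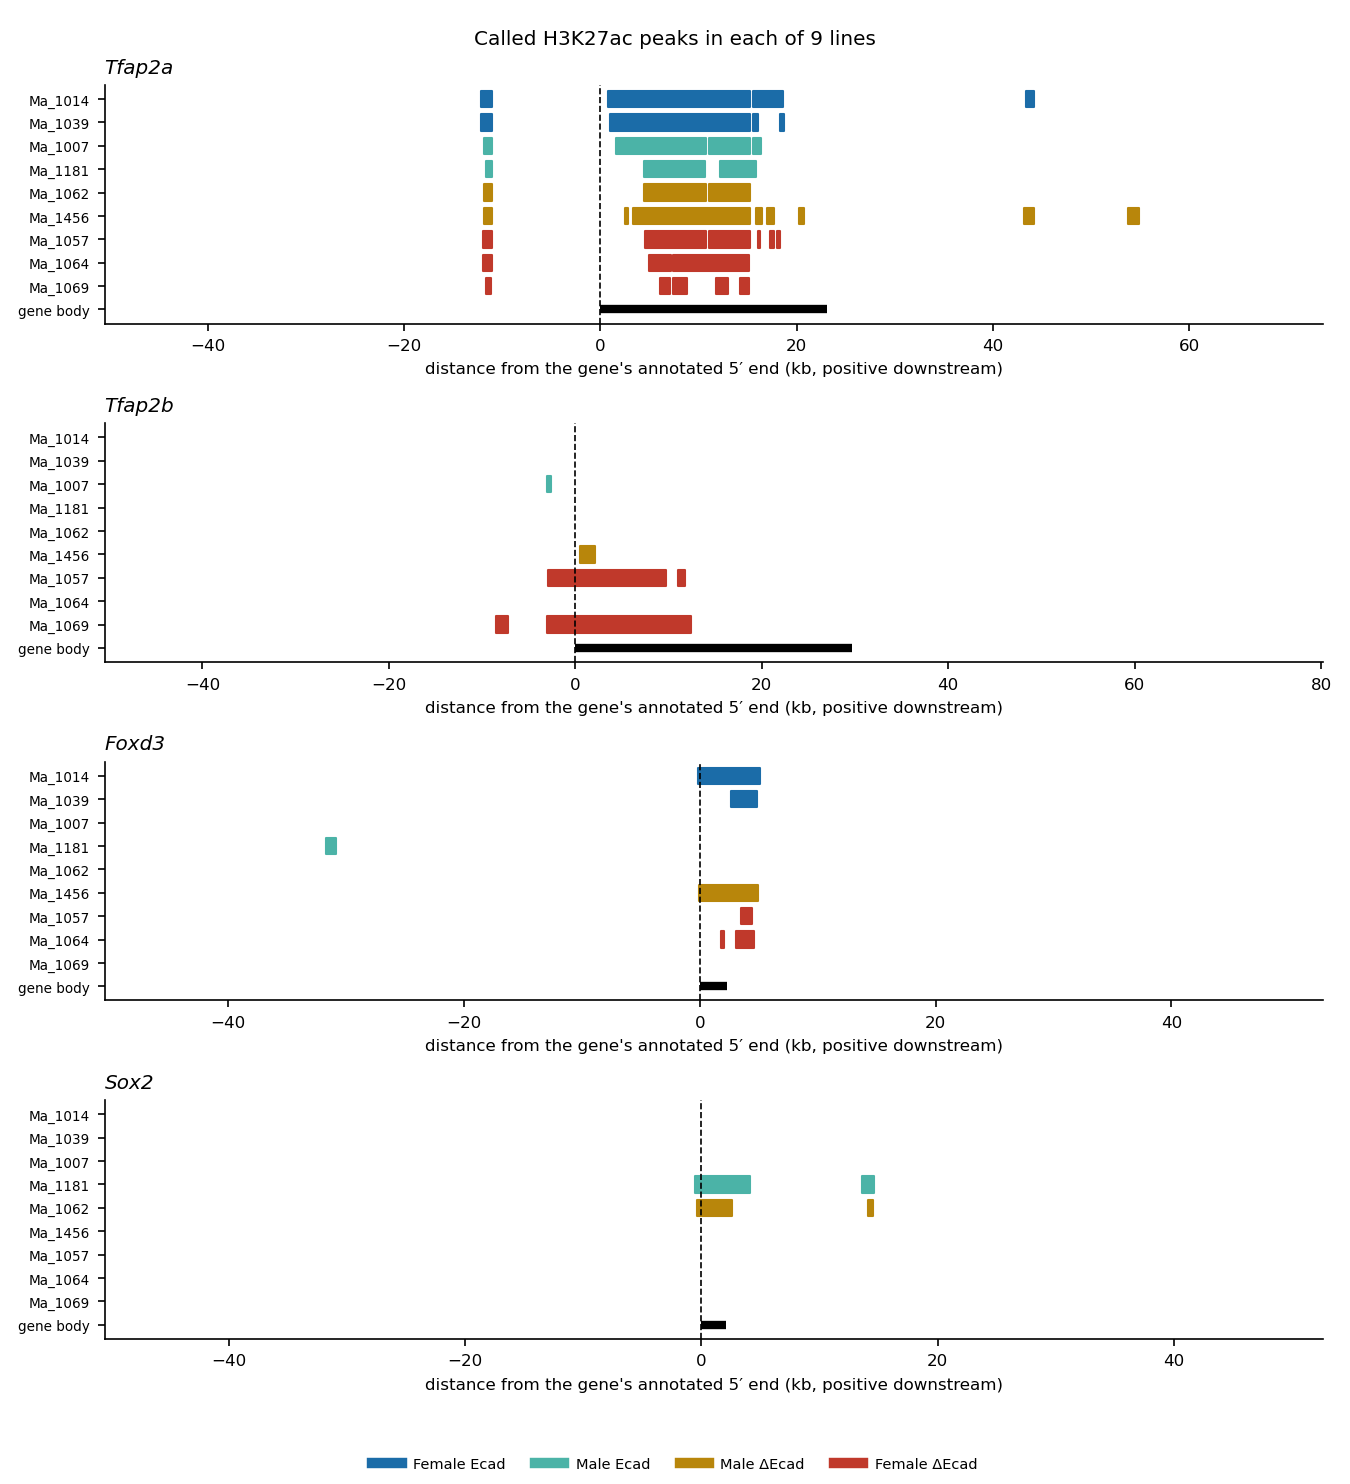
Called H3K27ac peaks (bars, 1 row per line, coloured by group) in the windows of Tfap2a, Tfap2b, Foxd3 and Sox2 against the distance in kb from the annotated 5′ end of the gene, positive downstream; the black bar is the gene body. The Tfap2a block comes within 1 kb of the 5′ end in Ma_1014 alone, and long Tfap2b peaks appear in Ma_1057 and Ma_1069.

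Sox5 (ENSMUSG00000041540.16, chr6:143828425-144781977, reverse strand) encodes a SOX protein that lacks an activation domain of its own and modulates the action of SOX10. Its body is 953.6 kb long, so that its window held 56 elements. Covered kb was 42.6 and 52.4 in Ma_1014 and Ma_1039 (female Ecad), 117.2 and 41.4 in Ma_1007 and Ma_1181 (male Ecad), 65.7 and 40.1 in Ma_1062 and Ma_1456 (male ΔEcad), and 42.4 in Ma_1057, 52.7 in Ma_1064 and 29.9 in Ma_1069 (female ΔEcad). The groups overlapped, and Ma_1007 lay far above the other 8 lines, with 13 elements that no other list called. These values were between 2.84% and 11.1% of the window, against 28.9% to 56.5% for Sox10.

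The promoter call of Sox5 rested on internal start sites. A group of 4 start sites about 572 kb inside the gene was called in all 9 lists, through an element of 4850 bp (chr6:144206869-144211718) with a mean percentile of 84.6. The 5′ end of the gene was called in 4 lists, Ma_1007, Ma_1181, Ma_1062 and Ma_1064, and 6 further annotated start sites, 577.6 to 834.9 kb inside the gene, in none. The strongest Sox5 elements were intronic and close to the called internal start. They were at chr6:144178440-144183549 (mean percentile 98.4) and chr6:144162768-144171604 (mean percentile 97.7), and the next was at chr6:144052242-144059767 (mean percentile 89.3). All 3 were called in all 9 lists. The first of them is the element whose sequence with the ACAAAG match is given above.

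Sox9 (ENSMUSG00000000567.5, chr11:112782224-112787760, forward strand), a relative of Sox10 that drives cartilage and early crest programmes, had at most 1 peak per list. The start-site element (chr11:112781233-112783024) covered 1.79 kb in Ma_1007 and 0.328 kb in Ma_1456. A second element 36.8 kb downstream of the start (chr11:112818536-112819467) covered 0.932 kb in Ma_1057 and 0.293 kb in Ma_1064, which are female ΔEcad lines, and was in no other list. The remaining 5 lists, Ma_1014, Ma_1039, Ma_1181, Ma_1062 and Ma_1069, had no peak in the window.

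Sox2 (ENSMUSG00000074637.7, chr3:34650405-34652461, forward strand), a factor of neural and glial progenitors, had peaks in 2 male lines of different genotype and in no female line. Ma_1181 (Ecad) covered 5.58 kb and Ma_1062 (ΔEcad) 3.41 kb, whereas Ma_1007 and Ma_1456, also male, and the 5 female lines had 0. The difference between the sexes was -2.25 kb (exact permutation p = 0.17, adjusted p = 0.56). Both lists called the start-site element (chr3:34649896-34654475) and a second one 14.1 kb downstream of the start, inside the non-coding Sox2ot. The Sox2 window therefore differed between lines of the same sex and genotype.

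Foxd3 (ENSMUSG00000067261.4, chr4:99656299-99658622, forward strand), a repressor of the melanocyte fate in early crest, had peaks over its start in Ma_1014 (5.23 kb) and Ma_1456 (5.02 kb). Peaks that did not reach the start covered 2.16 kb in Ma_1039 and 0.887 kb in Ma_1057, both downstream of the gene, and 1.82 kb in Ma_1064, at the 3′ part of the gene and downstream of it. Ma_1181 had a single peak of 0.797 kb that lay 31.3 kb upstream, and Ma_1007, Ma_1062 and Ma_1069 had none. The genotype difference was -2.79 kb in females and 2.11 kb in males, and the test of the difference between them gave -4.90 kb (exact permutation p = 0.0833, adjusted p = 0.626). No member passed an unadjusted 0.05 in this test, where 6.11% of all genes did in either direction. Leaving out each line in turn, the difference ranged from -28.4 kb without Ma_1062 to -6.49 kb without Ma_1456 for Sox10 and from -7.41 to -2.39 kb without the same lines for Foxd3. Without Ma_1062 both had an exact permutation p of 0.0333 (adjusted p = 0.302), where 11.03% of all genes passed 0.05.

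RefSeq promoters, 250 bases before to 50 after the start, were found for 5 of the 8 genes. The Sox2 promoter held 27 CG dinucleotides and that of Foxd3 held 25, more than in 84.5% and 81.6% of the 32841 promoters of the table, although each was called in 2 lists. The 2 entries for Tfap2a held 11 and 15, Tfap2b held 8 and Sox5 held 3, against a median of 7 over the table. The Sox5 entry lies at a start 835 kb inside the gene that no list called, not at the starts called in 9 or 4 lists. The Tfap2b entry lies at a start 3.14 kb inside the gene, called in Ma_1057 and Ma_1069. The Foxd3 promoter held 1 CACGTG, found in 7.2% of all promoters, and the Sox2 promoter 1 ACAAAG and 1 CATGTG, found in 18.7% and 14.2%.

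Genes that act with the 8 factors were then counted. Of 10 melanocyte genes downstream of SOX10, PAX3 and TFAP2A, 7 had a promoter call in all 9 lists, Mitf, Dct, Tyr, Pmel, Mlana, Erbb3 and Trpm1. Tyrp1 was called in 6 lists, Kit in 5 and Ednrb in 3 (Ma_1181, Ma_1057 and Ma_1069). In female ΔEcad against the rest 3 of the 10 passed an unadjusted 0.05 in the lower direction and 1 in the higher, where 28.5% and 1.52% of all genes did. The lower ones were Dct, a melanin synthesis enzyme (10.3 to 11.7 kb against 20.8 to 43.0 kb), Pmel, a melanosome fibril protein (5.35 to 7.18 against 6.58 to 19.4 kb), and Erbb3, a neuregulin receptor of crest cells (8.29 to 9.46 against 13.0 to 20.6 kb). Mlana, a melanosome protein, was higher (9.50 to 16.5 against 6.72 to 10.9 kb). The values of Pmel and Mlana overlapped between the groups. Per Mb of list Pmel and Erbb3 missed 0.05 (exact permutation p = 0.0714 and 0.107), while Dct (p = 0.0476) and Mlana (p = 0.0119) passed it. On that scale 15.4% of all genes passed as lower and 5.62% as higher. The median difference over the 10 genes was -5.10 kb, against -1.34 kb for all tested genes.

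Of 25 other neural crest and plate border factors 6 had a promoter call in all 9 lists, Ets1, Myc, Id2, Lmo4, Nr2f2 and Alx1, 7 in some and 12 in none. Of the 18 with a peak in the window 3 passed an unadjusted 0.05 as lower in female ΔEcad and none as higher, where 28.5% of all genes passed as lower. These were the inhibitors of bHLH factors Id1, Id2 and Id3, with differences of -8.04, -3.74 and -5.78 kb (exact permutation p = 0.0476, 0.0119 and 0.0357, adjusted p = 0.159, 0.0816 and 0.136). Per Mb of list Id3 missed 0.05 (exact permutation p = 0.0595), where 15.4% of all genes passed as lower. The exact permutation test of the difference between the genotype effects in the sexes gave an unadjusted p of 0.0333 for 4 of the 18, Zic2 and Prrx1 with a higher difference in females and Ets1 and Alx1 with a lower one (adjusted p = 0.546 each), where 6.11% of all genes passed 0.05. Per Mb of list Alx1 missed 0.05 (exact permutation p = 0.0833), where 8.77% of all genes passed it.

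Among 15 other Sox genes, Sox4 and Sox6 had a promoter call in all 9 lists, 4 in some and 9 in none. The window of Sox8, which belongs to the same SoxE group as Sox9 and Sox10, was covered more in female ΔEcad, although no list called its promoter. Its window held 3.57 to 3.89 kb in the 3 lines and 0.312 to 3.16 kb in the other 6 (difference 2.34 kb, exact permutation p = 0.0119, adjusted p = 0.0816), and the p was 0.0119 per Mb of list too. Sox13 was also higher and Sox15 lower. The covered kb of Sox15 equalled that of Cd68 in every list but Ma_1007 (13.0 and 12.8 kb), so its window does not separate these genes. Neighbours in the windows of Sox8 and Sox13 were not examined. In kb and per Mb of list, 2 of the 11 tested Sox genes passed an unadjusted 0.05 as higher and 1 as lower. Of all genes 1.52% were higher and 28.5% lower in kb, and 5.62% and 15.4% per Mb. The promoter of Sox13 was called in Ma_1181 alone and that of Sox15 in Ma_1014 alone. The median difference over the 11 tested genes was -2.62 kb, against -1.34 kb for all tested genes. By genotype, Sox6, the SoxD relative of Sox5, had 48.7 to 64.4 kb in the 4 Ecad lines and 30.6 to 32.8 kb in the 5 ΔEcad lines (difference -23.1 kb, exact permutation p = 0.00794, adjusted p = 0.202). Per Mb of list the Sox6 difference had an exact permutation p of 0.0635. By genotype 4 of the 11 tested Sox genes passed an unadjusted 0.05, all lower in ΔEcad, as did 2 of the 18 crest factors and 3 of the 10 melanocyte genes, where 18.1% of all genes were lower. Per Mb of list 1 of these Sox genes, 0 crest factors and 0 melanocyte genes were lower, against 7.03% of all genes.

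Likeness of pattern was measured as the Pearson r of covered kb per Mb of list over the 9 lines, among protein-coding genes of other chromosomes with a peak in the window in at least 5 lists. The closest genes to Sox10 were Adam15 (r = 0.948) and Slc30a3 (r = 0.935), those to Tfap2a Iffo2 (r = 0.92) and Alox8 (r = 0.912), those to Sox5 Gpx2 (r = 0.94) and Slc35d3 (r = 0.937), and those to Foxd3 Arhgap15 (r = 0.974) and A730009L09Rik (r = 0.94). Those to Pax3 were Osbpl1a (r = 0.969) and Psat1 (r = 0.961). Each pair had the highest r of 14384 to 15113 candidates, the 9 points share their lists, and Sox9, Sox2 and Tfap2b were at 0 in 5 lists or more, where the closest genes were Incenp (r = 0.957), Gm4756 (r = 0.993) and Zdhhc9 (r = 0.99).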

How the data were processed

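H3K27ac ChIP-seq peaks of 9 mouse melanoma lines were used, 1 list per line, with the line as the replicate. The 4 input samples were not analysed here. Per the submitters' processing notes, reads were aligned to GRCm38 (mm10) with Bowtie2 2.4.5, and MACS2 2.2.7.1 and deepTools 3.5.1.0.0 are named. Each deposited list held, as the authors' peak caller wrote them, a score, a fold enrichment over local background, and the −log10 p and −log10 q values of each peak. The lowest −log10 q was just above 5. Which input served as control for which list is not given in the sources used here. The study's methods state 1 planned depth for all samples, and the depth each library reached is not in the lists.

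Genes and start sites were taken from GENCODE M21 (55450 genes, 141767 transcripts), which uses the build of the lists. From the lists were computed covered kb in each window, promoter calls, merged elements and the percentile of −log10 q within each list (Python 3.11.15, numpy 2.4.6, pandas 2.3.3, matplotlib 3.10.9). Covered kb was compared by exact two-sided permutation over lines, with Benjamini-Hochberg adjustment over 18244 protein-coding genes, by genotype and by sex (126 arrangements each, smallest p 0.00794), for female ΔEcad against the rest (84 arrangements, smallest p 0.0119) and for the genotype difference between the sexes (60 arrangements, smallest p 0.0167). The tests were first run on these window values with each gene's lines shuffled and a known shift added to some genes. The test of the genotype difference between the sexes recovered a change in 1 sex poorly. The p-values measure the spread between these lines.

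The 8 genes and the other lists were chosen with earlier results of these data known. Named elements were the 3 strongest of a window by mean percentile, the element over the start and any called in exactly 1 group; the element at the Micall1 start and the counts of broken blocks were chosen after their values were seen. Alternatives were windows of 10 and 100 kb, lists reduced to the shortest length or to their stronger 50%, kb per Mb of list, other promoter distances, and leaving out each line. Some marker genes are not reported here.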

Additional observations from a re-analysis of the deposited data

Results flagged for a closer look

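In 7 of the 31 groups of 4 or 5 lines in which the highest or lowest value was examined, that value stood apart by Dixon's ratio. In 4 of the 7 all other lines of the group had 0, so any value above 0 stood apart and the rate of about 1 in 20 that chance gives does not apply. The groups also share lines. Among ΔEcad lines, Ma_1456 had 62.304 kb covered in the Sox10 window, above the other 4. Among Ecad lines, Ma_1007 had 117.238 kb at Sox5, 1.792 kb at Sox9 and 0.413 kb at Tfap2b. In the last 2 windows the other 3 Ecad lines had 0. Ma_1181 had 5.576 kb at Sox2 among Ecad lines and Ma_1062 3.406 kb among ΔEcad lines, where all the others of the same genotype had 0. Ma_1456 had 5.019 kb at Foxd3 among the male lines. Ma_1007 is the line with the longest list.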

How the results depend on the processing

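No paired analysis was possible because the replicate numbers were given in accession order and pair no lines. Over the alternatives, 403 member differences in kb kept their direction and their side of 0.05, 23 turned sign, 12 lost and 10 gained a p below 0.05, and per Mb of list 25 kept both, 5 turned and 2 were lost. The number of members below 0.05 by genotype was 0, and became 1 with 10 kb flanks, lists of the shortest length or their stronger 50% (Sox10 each time), and 2 with 100 kb flanks (Sox10 and Pax3). Of all genes 18.39% passed, and 17.45%, 16.23%, 17.81% and 18.61% in those settings. By sex it was 1, and became 0 with the stronger 50% and per Mb, and for female ΔEcad 2 became 0 per Mb. With 100 kb flanks the Pax3 difference of female ΔEcad was -29.0 kb (exact permutation p = 0.0595, adjusted p = 0.177). Per Mb 9.13% of all genes passed by genotype.

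The sign turned at Sox9 for female ΔEcad (-0.353 kb with 10 kb flanks, -0.299 kb with the stronger 50%), at Pax3 for the genotype difference between the sexes (-0.454 kb with 10 kb flanks, -1.001 kb at the shortest length, -10.724 kb with the stronger 50%) and at Sox2 for the same difference (-2.099 kb with 100 kb flanks). Per Mb it turned by genotype at Sox9 (0.002), Sox5 (0.028) and Pax3 (0.06), for female ΔEcad at Pax3 (0.035) and by sex at Tfap2a (0.034). With the 5′ end alone, Sox5 was called in 4 lists and Tfap2a in 1. Sox9 was called in 1 at the shortest length and in 1 with the stronger 50%. Elements covered to at least 50% in all 9 lists numbered 6 instead of 19.

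Leaving out each line in turn, differences in kb ranged by genotype from -0.293 to 0.311 (Sox9), -24.594 to 0.676 (Sox5, the latter without Ma_1007), -1.394 to 0.681 (Sox2) and -1.369 to 0.56 (Foxd3). By sex they ranged from -0.462 to 0.136 (Sox9), -2.285 to 1.271 (Tfap2a) and -0.238 to 1.752 (Foxd3), and for female ΔEcad from -0.207 to 0.343 (Sox9). The genotype difference between the sexes ranged from -17.289 to 58.521 (Sox5), -1.703 to 3.873 (Sox2) and -1.794 to 9.717 (Pax3). Members below 0.05 numbered 0 to 1 by genotype, 0 to 1 by sex, 1 to 2 for female ΔEcad and 0 to 2 for the genotype difference between the sexes, and the share of all genes below 0.05 was 7.27 to 17.42%, 3.92 to 10.13%, 16.44 to 26.31% and 0 to 11.03%. Where not shown by fewer lines or genes, the cause was not tested. The depth each library reached sets what a peak list can hold and is not in the lists.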
